A study of Homo sapiens with 6 samples.

Results

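GSX2 binding was examined at 10 genes of bone morphogenetic protein (BMP) signalling. They were the ligand genes BMP2, BMP4, BMP5, BMP6 and BMP7, the type I receptor genes BMPR1A and BMPR1B, the secreted antagonist genes NOG and CHRD, and SMAD6, which encodes an inhibitor inside the cell. The genes were chosen by name, with earlier results of these data known. A peak was counted for a gene when that gene's span was the nearest protein-coding span to the peak's strongest summit. Peaks of the replicates that overlapped by at least 1 bp were merged into regions. This gave 36 regions of 15743 in all, built from 20, 18 and 20 peaks of replicates 1, 2 and 3.

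The peaks come from chromatin immunoprecipitation and sequencing in H9, an established line of human embryonic stem cells, differentiated toward progenitors like those of the lateral ganglionic eminence (LGE), the ventral forebrain territory that forms the striatum. The only group with values here held 3 replicates of cells of genotype TRE3G 2xFLAG-GSX2 WT, in which a doxycycline-responsive promoter drives wild-type GSX2 with a FLAG tag. They received 100 ng/mL doxycycline for 12 hours from day 10, were taken at day 10.5 and were precipitated with the M2 antibody against FLAG. Before induction all cells had passed through LDN193189, an inhibitor of BMP type I receptors, together with SB431542 (against TGF-beta type I receptors) and at first XAV939 (against Wnt signalling), and then through IWP2, which blocks Wnt secretion, with Activin A. The antibody therefore reports the induced, tagged protein and not GSX2 made from the cells' own gene. The 3 input samples, from the same cells, were not analysed here. There was 1 group, so no contrast and no test between conditions, and the cell identity could not be checked from peak lists.

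BMPs are secreted ligands that dimerise and bind type I and type II receptor kinases, which phosphorylate receptor SMAD proteins that then regulate genes together with SMAD4. Noggin (NOG) and chordin (CHRD) bind the ligands outside the cell, and SMAD6 is a feedback inhibitor that acts downstream of the receptors. In the embryonic forebrain BMPs from the dorsal midline pattern the dorsal telencephalon, whereas GSX2 is a homeodomain factor of the LGE, a ventral territory. Homeodomain proteins commonly recognise DNA with a TAAT core.

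In the whole set, 3537 regions held a peak of every replicate, and the lists contributed 9859, 7471 and 9122 peaks on chromosomes 1 to 22 and X. Fold enrichment, the authors' own linear ratio for each peak, had a median of 7.15, 7.73 and 7.48 in replicates 1, 2 and 3. No read counts come with these lists, so depth is unknown, and a missing peak means that none was called. Fold enrichment in a population does not separate the share of cells bound from the strength of binding in each.

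GSX2 regions found in all 3 replicates lay at 3 of the 5 ligand genes, BMP2, BMP5 and BMP7, and at both receptor genes. They made up 7 regions, 1 for each of those ligand genes and 2 for each receptor gene. BMP4, BMP6, NOG and SMAD6 had regions of fewer replicates only, and CHRD had no peak in any list. Thus 5 of 10 genes had a region of all 3 replicates, against 12.3% of the 19974 protein-coding genes. Counting regions of at least 2 replicates, 8 of 10 genes had one, against 20.2% of all genes. With any region it was 9 of 10 genes, against 32.6%. These shares only describe the list, since it was drawn up with earlier results of these data known.

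These genes stand in wide stretches of genome, where more genes have a region. The territory of a gene, the length over which it is the nearest protein-coding gene, had a median of 270 kb over the 10 genes and 55 kb over all genes. Of the 5 BMP genes with a territory of at least 270 kb, 3 had a region of all 3 replicates (BMP2, BMP7 and BMPR1B, but neither BMP4 nor SMAD6), against 46.0% of the 2594 protein-coding genes with such a territory. The share at these 5 genes is therefore near its background. Of the 5 BMP genes with shorter territories, 2 had one, BMP5 and BMPR1A, against 7.26% of the 17380 protein-coding genes with a territory under 270 kb. That share is not matched for territory. These 5 genes had territories of 97 to 250 kb, whereas many of the 17380 genes had far shorter ones. The 10 territories together held 2.12 regions of all 3 replicates per Mb, against 1.17 per Mb over all territories. CHRD had the shortest of the 10 territories, 97 kb, and BMP2 the longest, 886 kb.

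**Figure D1:**
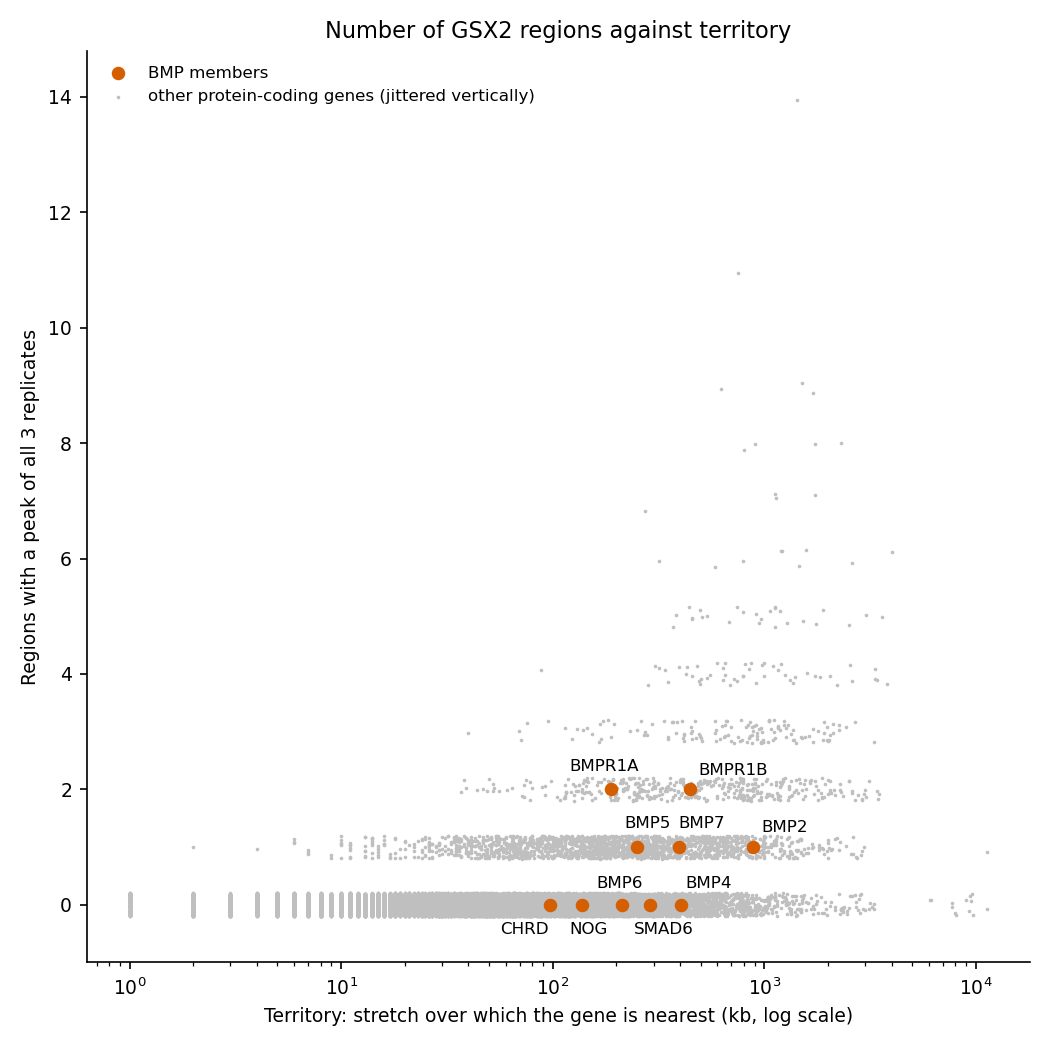
Number of regions with a peak of all 3 replicates (vertical axis) against the territory of the gene in kb (horizontal axis, log scale) for the 10 BMP genes (orange, labelled) and other protein-coding genes (grey, shifted vertically at random for visibility; 76 genes with no point of a 1000-bp grid are left out). BMPR1A, with 2 regions in 189 kb, and BMP2, with 1 in 886 kb, had the highest and lowest density among the 5 BMP genes with a region.

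A pair of promoter sequences shows where a peak met the start of a gene of this pathway. They were the only overlaps between a region and a RefSeq promoter window (250 bases before to 50 after a start) among the 7 of the 10 genes with such windows and, for regions of all 3 replicates, among the other pathway genes described further on. Printed for each are the 250 bases before an annotated start, from RefSeq (GRCh38.p14), 5′ to 3′ on the gene's strand, with every TAAT or its complement ATTA in capitals. The first belongs to a start inside BMP4 (chr14:53953396-53953645, minus strand) and the second to MSX2, a BMP target (chr5:174724332-174724581, plus strand).
BMP4: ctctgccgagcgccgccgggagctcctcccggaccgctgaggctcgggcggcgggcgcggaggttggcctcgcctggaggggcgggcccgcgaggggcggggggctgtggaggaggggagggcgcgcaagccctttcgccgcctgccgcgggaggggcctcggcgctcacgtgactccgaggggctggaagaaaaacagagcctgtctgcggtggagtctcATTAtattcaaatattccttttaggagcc
MSX2: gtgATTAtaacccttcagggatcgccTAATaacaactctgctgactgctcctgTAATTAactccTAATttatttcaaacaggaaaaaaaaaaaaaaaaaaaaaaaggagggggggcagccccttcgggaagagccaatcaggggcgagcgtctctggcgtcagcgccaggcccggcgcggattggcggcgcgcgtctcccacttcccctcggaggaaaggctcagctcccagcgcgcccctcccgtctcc
The BMP4 window held 1 ATTA and no TAATTA, and 70.4% of its bases were G or C. The summits of the BMP4 region lay downstream of the start, outside the printed bases, so the sequence there was not examined. The MSX2 window held 5 occurrences of TAAT or ATTA, 2 of which form 1 TAATTA beginning at position -197 from the start, and its G and C content was 55.6%. Over 34789 RefSeq promoter windows of the same length, 47.5% held TAAT on either strand and 4.37% held TAATTA, which reads the same on both strands. A match describes the letters and is not evidence of a bound site.

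**Figure D2:**
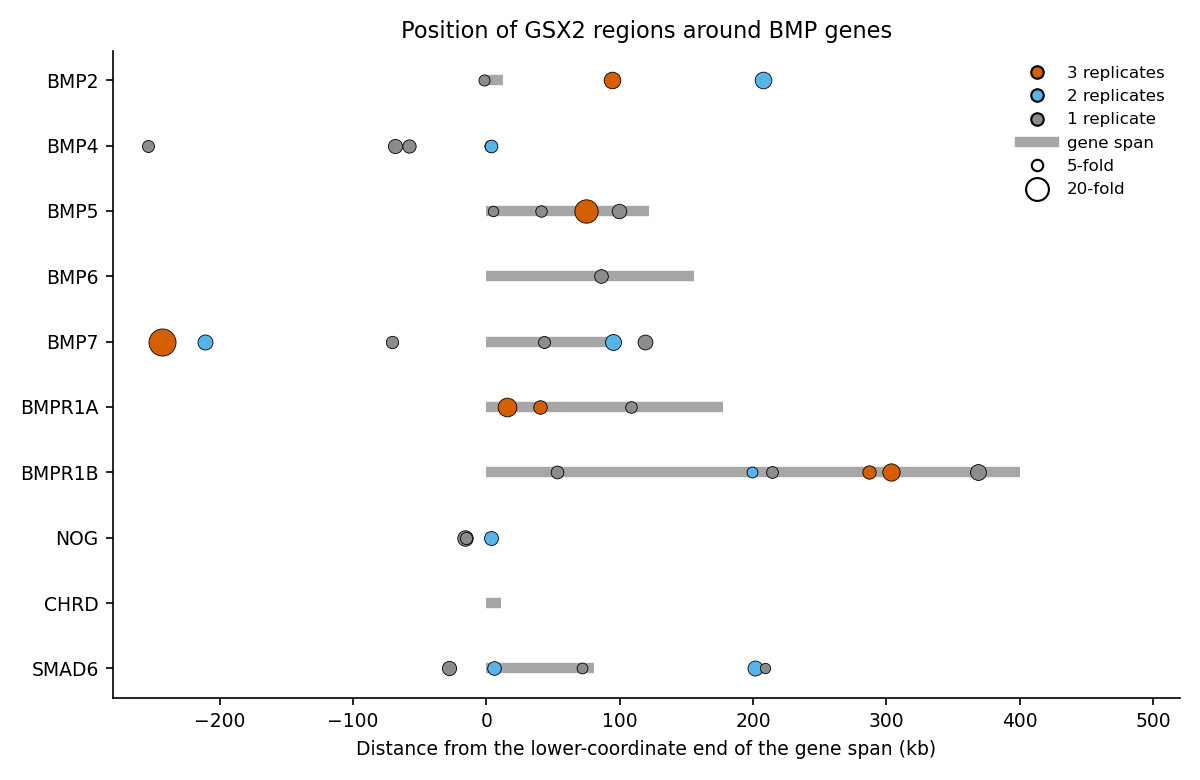
Position of each GSX2 region (circle, at the median summit) relative to the gene's lower-coordinate end in kb (horizontal axis) for the 10 BMP genes (rows); the bar is the gene span, circle area scales with mean fold enrichment and colour gives the number of replicates with a peak. Regions closer than a few kb overlap, as at BMP4 and NOG. The largest circle lies 243.7 kb outside BMP7, and all regions of BMPR1A and BMPR1B lie inside their genes.

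Among the ligands, BMP7 had the strongest region and the one farthest from its gene of the 7. It spanned chr20:56924598-56925654 (hg38), 243.7 kb outside the gene, and reached 31.8-, 24.7- and 27.9-fold in replicates 1, 2 and 3. The mean was 28.1 ± 3.5-fold (SD, n = 3), rank 37 of the 3537 regions of all 3 replicates. It was broad, with 1001, 942 and 895 bp and 2, 3 and 3 summits, while the strongest summits of the replicates lay within 22 bp of each other. BMP7, also called OP-1, is a ligand made among other places at the dorsal midline and in the choroid plexus. The next protein-coding gene, TFAP2C, was 285.8 kb away. Both distances are to the nearer end of the gene span. The promoter table held no start of BMP7, so assignment by the nearest gene start was not tested and may differ. The assignment to BMP7 was lost when regions were given to the nearest gene of any type, the noncoding LOC105372683 at 49.6 kb, or were limited to 100 kb.

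Another 5, weaker, regions completed the BMP7 locus. A region 210.8 kb away had 8.78- and 8.55-fold in replicates 1 and 3 and none in replicate 2. One inside the gene had 7.32- and 12.1-fold in replicates 2 and 3 and none in replicate 1. The remaining 3 regions each had a peak of 1 replicate, of 5.54- to 8.46-fold. No peak of these 5 exceeded 12.1-fold, against at least 24.7-fold in every replicate of the distal region.

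BMP5, a ligand gene of the same subfamily as BMP6 and BMP7, carried the second strongest region. It lay inside the gene (chr6:55828228-55829083), 47.1 kb downstream of the annotated start, with 24.3-, 15.0- and 23.5-fold in replicates 1, 2 and 3. The mean was 21.0 ± 5.2-fold (SD, n = 3), higher than 96.3% of the regions of all 3 replicates. Replicate 2 was the low one, and in its list the peak ranked 452, against ranks 89 and 102 in replicates 1 and 3. A further 3 regions inside BMP5 had a peak of 1 replicate each, of 4.15-, 5.05- and 8.06-fold.

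BMP2, a ligand with wide roles in bone and heart development, had its region of all 3 replicates outside the gene. That region (chr20:6861819-6862125), 81.7 kb away, had 8.07-, 12.9- and 10.8-fold in replicates 1, 2 and 3, a mean of 10.6 ± 2.4-fold (SD, n = 3). Replicate 1 was the lowest here, the reverse of BMP5 and BMP7. The next protein-coding gene, FERMT1, was 739.0 kb away. A second region 194.9 kb from BMP2 had a similar height, 8.86- and 12.4-fold in replicates 2 and 3, but no peak in replicate 1. A peak of 4.72-fold, in replicate 2 only, lay 1.72 kb from the gene.

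BMP4, a close relative of BMP2 and a ligand of the dorsal midline, had 5 regions, none of all 3 replicates. The region at the start shown above (chr14:53953174-53953500) had 7.26- and 5.01-fold in replicates 1 and 2, with summits 20 and 34 bp downstream of that start, and no peak in replicate 3. A separate peak of replicate 3, of 4.88-fold, lay 554 bp from it. The other 3 BMP4 regions had 1 replicate each, 58.1, 68.3 and 253.8 kb away, with 6.79-, 7.71- and 5.55-fold. BMP6, a ligand gene also known for its part in iron control, had a single peak, 7.15-fold in replicate 1, inside the gene.

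Both type I receptor genes held 2 regions of all 3 replicates inside the gene, and in each gene 1 of the 2 was weak. In BMPR1A, a broadly expressed receptor, the stronger lay 15.2 kb downstream of the annotated start (chr10:86770708-86771184), with 16.7-, 12.8- and 10.8-fold in replicates 1, 2 and 3. Its mean was 13.5 ± 3.0-fold (SD, n = 3). The weaker, 40.1 kb downstream, had 8.23-, 6.52- and 6.38-fold, a mean of 7.04 ± 1.03-fold (SD, n = 3), and exceeded only 15.0% of the regions of all 3 replicates. Its strongest summits lay 16 bp apart in replicates 1 and 3, while that of replicate 2 was 307 bp from replicate 3.

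BMPR1B, a receptor with a more restricted expression in neural and skeletal tissue, has 3 annotated starts. Its stronger region (chr4:95060861-95061260) lay 9.38 kb downstream of the nearest start, with 12.6-, 11.5- and 10.3-fold in replicates 1, 2 and 3, a mean of 11.5 ± 1.2-fold (SD, n = 3). The weaker (chr4:95044337-95044842) lay 6.94 kb upstream of the same start and had 5.35-, 7.08- and 8.09-fold, a mean of 6.84 ± 1.39-fold (SD, n = 3). The 2 regions of this gene thus flanked 1 internal start. Another 4 BMPR1B regions had a peak of 1 or 2 replicates, of 4.26- to 9.66-fold.

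The inhibitor genes NOG, CHRD and SMAD6 had no region of all 3 replicates. Such a region lay at 12.3% of all protein-coding genes, so its absence at so few genes says little. Some other inhibitor genes of the pathway, such as SMURF1, FST and CHRDL1, did have one, as described further on. NOG had a region 1.49 kb from the gene (chr17:56596987-56597220) with 7.32- and 7.59-fold in replicates 2 and 3 and none in replicate 1. On the other side, 15.5 and 15.9 kb away, a peak of replicate 1 (5.68-fold) and a peak of replicate 3 (9.17-fold) lay 219 bp apart without overlapping. SMAD6 had 5 regions, of which 2 had peaks of replicates 2 and 3. The first of these, inside the gene 5.40 kb downstream of the start (chr15:66707407-66707726), had 7.84- and 6.38-fold. The second, 121.0 kb outside the gene, had 8.65- and 8.51-fold, and the next protein-coding gene there was SMAD3, a SMAD of the TGF-beta branch, at 161.8 kb. The remaining 3 SMAD6 regions were peaks of replicate 1 of 4.12- to 7.81-fold. Chordin's gene, CHRD, had none.

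**Figure D3:**
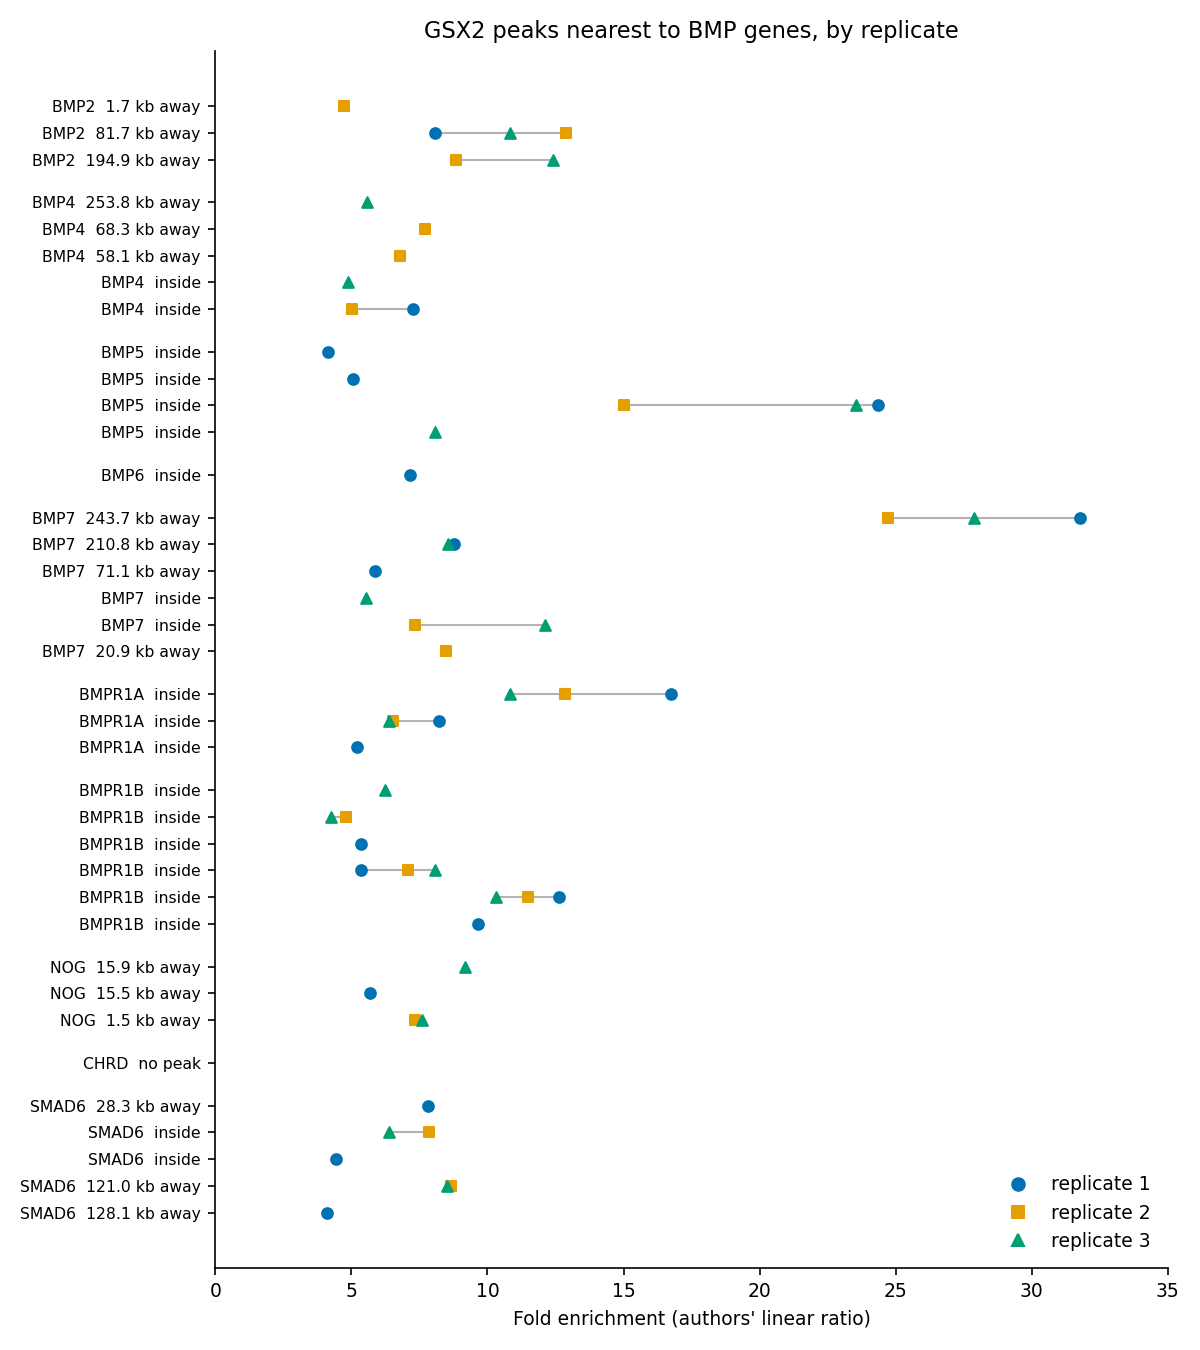
Fold enrichment (linear ratio, horizontal axis) of every peak nearest to the 10 BMP genes, 1 row per region in order of position, with replicates 1 to 3 as circles, squares and triangles and a grey line joining the lowest and highest replicate. The regions of BMP7 at 243.7 kb and inside BMP5 stand to the right of the others in each replicate that has a peak.

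Ordered by their strongest region, the genes ran BMP7, BMP5, BMPR1A, BMPR1B and BMP2. The replicates of BMP7 and BMP5 did not overlap, but only narrowly, with 24.7-fold as the lowest for BMP7 and 24.3-fold as the highest for BMP5. The range of BMP5 overlapped that of BMPR1A, though BMP5 was the higher in 3 of 3 replicates. BMPR1A likewise overlapped BMPR1B and was the higher in 3 of 3 replicates. BMP2 overlapped both receptor genes, and each of them exceeded it in 1 of 3 replicates, so its place in the order was not resolved. No test was made of these differences, since the peaks are ranked within lists that were called separately.

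The median of the mean fold enrichment was 11.5 over the 7 BMP regions of all 3 replicates, against 9.49 over all 3537 such regions. It was 8.02 over the 8 BMP regions of 2 replicates, against 7.18, and 5.68 over the 21 of 1 replicate, against 6.21. Replicates varied among the 7 regions about as elsewhere, with a median coefficient of variation of 20.3%, against 19.5%. Of the BMP regions 19.4% were of all 3 replicates, against 22.5% of all regions. The values of the 7 regions therefore ranged from near the bottom of the genome-wide set (6.84-fold) to its top few percent. Inside a protein-coding span lay 20 of the 36 BMP regions (55.6%), against 50.9% of all regions, and 5 of the 7 (71.4%), against 51.3%.

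**Figure D4:**
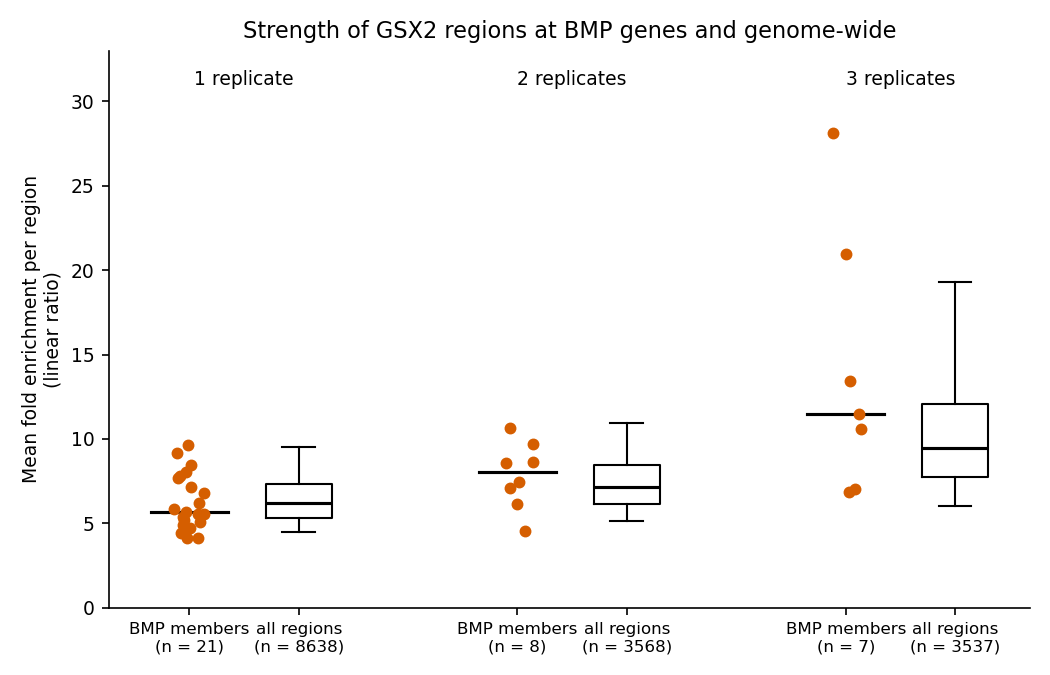
Mean fold enrichment per region (linear ratio, vertical axis) for regions of 1, 2 and 3 replicates, each with the BMP regions (orange points, line at the median) left of all regions (box from the 25th to the 75th percentile, line at the median, whiskers at the 5th and 95th percentiles). Among regions of 3 replicates, 2 BMP regions stand above the upper whisker and the BMP median is 11.5, against 9.49 for all.

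Replicates 1, 2 and 3 had no peak in 16, 18 and 16 of the 36 BMP regions. Among the BMP regions of 2 replicates, replicate 1 was the one most often missing, whereas genome-wide it was replicate 2 (46.2% of such regions). Of the 8 BMP regions of 2 replicates, 6 lacked a peak of replicate 1 (75.0%), against 895 of 3568 such regions genome-wide (25.1%). They were at BMP2, BMP7, BMPR1B, NOG and, in 2 cases, SMAD6. Leaving out replicate 1 raised the regions common to the remaining lists to 13 at these genes, with NOG and SMAD6 then among 7 genes, and to 4430 overall. Replicate 1 gave 11 of the 21 BMP regions of 1 replicate, against 3642 of 8638 such regions genome-wide. There too it gave more of them than replicate 2 or 3, so this is not particular to the BMP regions. The part of depth in these differences was not tested, since no counts come with the lists.

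The genes most like BMP7 by number of regions and height were CCDC59, GPC4 and FAM136A. Of the 1804 protein-coding genes with 1 region of all 3 replicates, these had the mean fold enrichment nearest to that of BMP7. CCDC59 had 28.2 ± 10.1-fold, GPC4 27.8 ± 4.2-fold and FAM136A 28.7 ± 1.5-fold (SD, n = 3 each). The regions of CCDC59 and GPC4 lay inside the gene and that of FAM136A at 1.97 kb, unlike the distal region of BMP7.

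Beyond these 10, 52 other genes of the pathway, also chosen with earlier results of these data known, were counted by role. Regions of all 3 replicates lay at 13 of them, 25.0%, against 12.3% of all protein-coding genes. The count was 6 with a −log10 q of at least 10 and 8 with the nearest gene of any type. Their territories had a median of 111 kb, against 55 kb for all genes. Their 24 regions of all 3 replicates had a median of 9.26-fold, against 9.49-fold for all.

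Of 12 other BMP and GDF ligand genes, 1 had a region of all 3 replicates. This was GDF11, with 10.8-, 7.93- and 5.16-fold in replicates 1, 2 and 3, inside the gene. Of 5 other type I and type II receptor genes, ACVR2A, a type II receptor for activins and BMPs, had 5 regions, the strongest of 13.8 ± 1.1-fold (SD, n = 3) at 394.3 kb. Its territory was 1748 kb, so all 5 were remote, at 374.8 to 1532 kb. BMPR2, the type II receptor of the BMPs, had none. The other type I receptor genes ACVR1 and ACVRL1 had no region of all 3 replicates either. ACVR1 had 2 regions of fewer replicates, and ACVRL1 had no peak. Of 6 co-receptor and pseudoreceptor genes, RGMB, a BMP co-receptor, had the only such regions, 2 in number, the stronger of 9.95 ± 2.44-fold (SD, n = 3) at 111.6 kb.

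Of 13 other secreted antagonist and modulator genes, 3 had regions of all 3 replicates. CRIM1, a membrane protein that binds BMPs, reached 11.8 ± 2.8-fold inside the gene and had a weaker, remote region at 887.4 kb. FST, whose product follistatin binds activins and some BMPs, had 7.03-, 15.4- and 12.1-fold in replicates 1, 2 and 3 at 2.10 kb, with replicate 1 the low one. CHRDL1, a chordin-like antagonist, had 7.19 ± 1.00-fold inside the gene (SD, n = 3). Of the 3 tolloid protease genes, whose products cleave chordin, TLL1 held 2 regions inside the gene, the stronger with 13.6, 13.6 and 14.1-fold in replicates 1, 2 and 3. TLL2 had 5.41 ± 0.63-fold at 0.826 kb, and BMP1 had no peak.

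Inside the cell, none of the 4 genes SMAD1, SMAD4, SMAD5 and SMAD9 had a region of all 3 replicates, and 3 of the 4 had a region of fewer. SMURF1, a ubiquitin ligase that targets BMP receptor SMADs, had the strongest region among the 52 genes. It lay inside the gene (chr7:99137497-99138118), with 31.1-, 17.4- and 19.8-fold in replicates 1, 2 and 3, a mean of 22.8 ± 7.3-fold (SD, n = 3). SMAD7 and SMURF2 had no region of all 3 replicates.

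Of the 6 target genes, 4 had a region of all 3 replicates, against 12.3% of all protein-coding genes. The territories of MSX2 and ID2 were wide, 669 and 823 kb, whereas that of ID3 was 81 kb. Of all protein-coding genes with a territory of at least 270 kb, 46.0% had such a region. MSX2, a homeobox gene induced by BMPs, had 3 regions of all 3 replicates, all within 3.57 kb of the gene. The strongest, at 3.44 kb, had 26.8-, 9.06- and 23.2-fold in replicates 1, 2 and 3, with replicate 2 far below the others. The region at the MSX2 start shown above (chr5:174724208-174724639) had 10.9-, 13.3- and 9.37-fold, a mean of 11.2 ± 2.0-fold (SD, n = 3). Its summits were at positions -204, -231 and -220 from the start in replicates 1, 2 and 3. The TAATTA at -197 lies nearby, but so do other TAAT or ATTA matches of the window. The summits of the replicates do not all lie nearest to the same match. ID2, which encodes an inhibitor of bHLH factors, had 3 such regions, the strongest of 8.37 ± 3.26-fold at 2.36 kb (SD, n = 3). The others of ID2 were remote, at 464.1 and 488.1 kb. ID3, a relative of ID2, had 1 of 7.84 ± 2.62-fold at 38.8 kb (SD, n = 3).

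**Figure D5:**
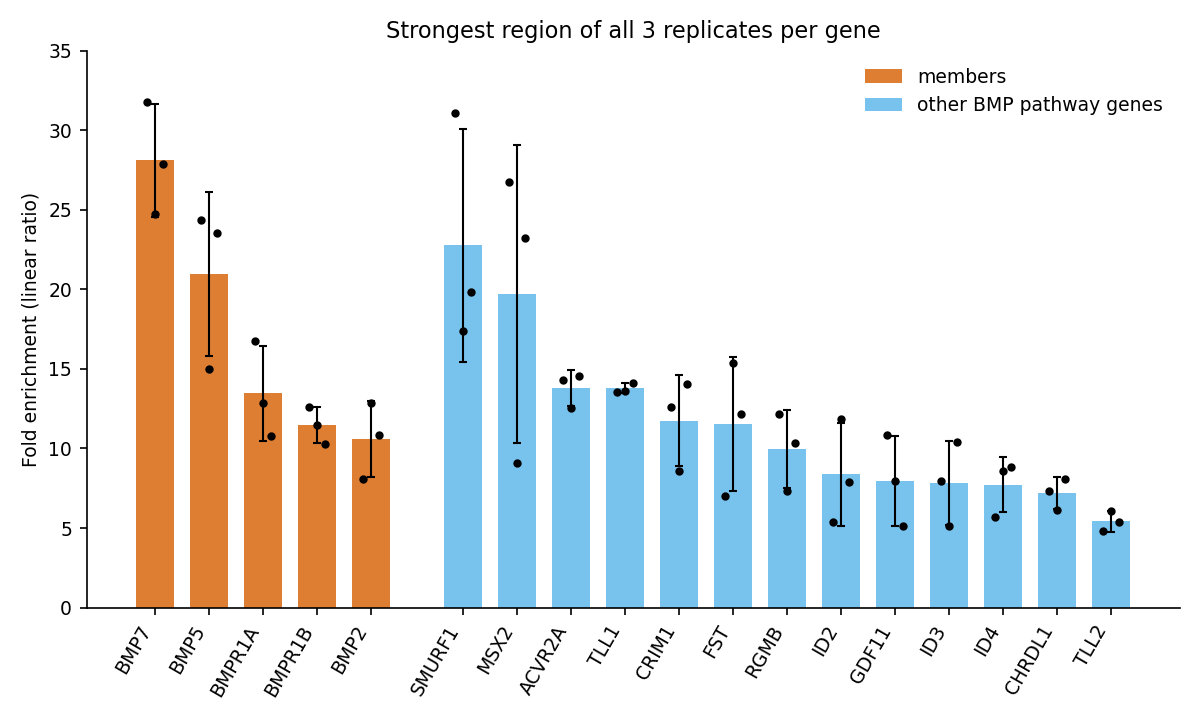
Strongest region of all 3 replicates for each gene that has one, with bars for the mean fold enrichment (linear ratio, vertical axis from 0), error bars for the SD and points for replicates 1 to 3 from left to right; the 5 genes of the main set are orange and the 13 other pathway genes blue. BMP7 has the highest mean, and the replicates of MSX2 spread the most, between 9.06- and 26.8-fold.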

How the data were processed

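ChIP-seq peak lists of 3 replicates were analysed. The genome build was hg38 and MACS3, Bowtie2, Trim Galore, deepTools and SAMtools were used, per the submitters' processing notes. The authors' q threshold for peaks was 0.001. The versions, the other settings and the control for peak calling were not given in the sources used here. Column 7 of the deposited lists is the authors' fold enrichment, a linear ratio, and the deposited −log10 p and −log10 q describe each peak. The smallest −log10 q was 3.01, 3.00 and 3.00 in replicates 1, 2 and 3. The deposited score is −log10 q times 10 and was not used. Peaks were called in each replicate separately.

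Lines sharing an interval were reduced to the summit of highest fold enrichment, giving 9936, 7535 and 9204 intervals, of which those on chromosomes 1 to 22 and X were kept. Each went to the nearest protein-coding span in RefSeq (GRCh38.p14, the same build), the shorter span winning ties, and intervals overlapping by at least 1 bp were merged. A region counts for each gene that one of its intervals went to. Distances use the median of the replicates' summits. Gene starts and strands came from the RefSeq promoter table, which matched 7 of the 10 genes. Territories were measured on a 1000-bp grid. Python 3.11.15, pandas 2.3.3 and numpy 2.4.6 were used, and merging and gene assignment were tested on simulated data.

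The 10 genes and the 52 other pathway genes were chosen with earlier results of these data known. All 10 were named, and in each role of the other list up to 3 genes with the strongest region of all 3 replicates. BMPR2, ACVR1, ACVRL1, BMP1, the SMAD genes and SMURF2 were named for having no such region. No test was made, as there is 1 group. Labels number the replicates and do not say whether they are separate cultures, so the spread may be partly technical. Alternatives were the replicates, the −log10 q minimum, the overlap, the gene assignment and the distance.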

Additional observations from a re-analysis of the deposited data

How the results depend on the processing

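Alternatives left most values within 1.5 times or within 1 SD over replicates. Without each replicate in turn, 5 to 7 of the 10 genes had a region of all remaining replicates (14.5%, 16.4% and 14.7% of all genes without replicates 1, 2 and 3), with 8 to 13 regions, a median of 9.72- to 11.3-fold and 15 to 16 other pathway genes. Regions of at least 2 replicates gave 8 genes (20.2% of all genes), 15 regions and a median of 8.66-fold. A −log10 q of at least 10 left 5 genes (7.75% of all genes) with 5 regions, a median of 13.5-fold and 6 other pathway genes. With the nearest gene of any type, 8 other pathway genes had a region, and of the 10 genes BMP7 had none (4 genes, 14.7% of all genes, 6 regions), as within 100 kb (4 genes, 10.8% of all genes, 6 regions). Merging peaks up to 500 bp apart, chosen after seeing the data, changed neither 5 genes nor 7 regions. The strongest regions of the 5 genes moved by less than 1 SD in all 53 values from these settings, which says little about robustness. Leaving out a replicate cannot move a mean of 3 by 1 SD of the same replicates, and most other settings left the value unchanged. The settings in which BMP7 had no region gave no value for it. No paired analysis was possible because the input samples have no values here and no test was made. Depth is unknown, so a missing peak does not show an absence of binding.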
